A study of Mus musculus with 22 samples.

Results

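Among the primary lymphomas that the submitters classed as not resembling mantle cell lymphoma (non-MCL), the transcript of the surrogate light chain gene Vpreb1 was either abundant or nearly absent. These tumours were selected on that readout: a library was placed in the Vpreb1-high class when Vpreb1 exceeded 100 CPM (counts scaled to a fixed library total), and in the Vpreb1-low class otherwise. The rule covered 10 of the 22 libraries of the series, from 9 of its 15 mice. It gave 6 Vpreb1-high libraries from 6 mice (TP8, TP15, oTP14, oTP9, oTP11 and oTP17) and 4 Vpreb1-low libraries from 3 mice (TP5, TP21, TP25 and oTP10). TP21 and oTP10 carry the same mouse identifier, so their counts were summed and entered as 1 mouse.

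The series profiled mouse B lineage lymphomas by QuantSeq 3′ mRNA sequencing, which reads a tag near the 3′ end of each transcript. All 9 mice were p53fl/fl;Mb1Cretg/+, in which Cre under the Mb1 (Cd79a) promoter deletes the floxed p53 alleles in the B lineage. TP8, TP15 and oTP14 also carried R26-Ccnd2tg/tg, a cyclin D2 transgene at the Rosa26 locus, whereas the other 6 mice had no Ccnd2 transgene. Strain was mixed (129/C57Bl6) in every mouse, and ages were not given in the sources used here. Each tumour arose in a separate animal, without treatment, and no healthy B cells were profiled for comparison.

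Genotype, name prefix and site were unevenly spread over the classes. All 3 Ccnd2 transgenic mice were Vpreb1-high, and all 3 Vpreb1-low mice were p53-only. The 3 p53-only mice in the high class had library names beginning with oTP, a prefix whose meaning the labels do not give. The high class held mediastinal lymphomas (TP8, oTP9), spleens (TP15, oTP14), a thymoma (oTP11) and a tumour labelled lymphoma (oTP17), whereas the low class was from spleen except oTP10, labelled lymphoma. Effects of genotype and class cannot be told apart among the TP libraries, since TP8 and TP15 are transgenic and TP5, TP21 and TP25 are not.

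B cells develop through ordered stages. Pro-B cells recombine the heavy chain locus with the RAG1/RAG2 recombinase. Large pre-B cells then pair the new μ heavy chain with a surrogate light chain, made of the VPREB and λ5 (Igll1) proteins, to form the pre-B cell receptor, and the surrogate genes are shut down once the cell proliferates and rearranges a true light chain. Immature and mature B cells carry κ or λ light chains, take up MHC class II antigen presentation fully, and may enter germinal centres, where their antibody genes are mutated and switched. Progenitor stages are marked on the surface by the IL-7 receptor, BP-1 (Enpep), BP-3 (Bst1) and AA4.1 (Cd93).

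Vpreb1 (ENSMUSG00000059305, a protein-coding gene at chr16:16868403-16870843 in GRCm38, GENCODE M21) set the classes, so its values are given as a description without a test. In the high class the lowest, the median and the highest of the 6 TMM-scaled levels (CPM adjusted for library composition) were 451, 3679 and 5822. In the low class Vpreb1 stood at 5.24 in TP5, 4.28 in TP21 with oTP10, and 2.21 in TP25. The gap around the threshold was wide: without scaling, the library just inside it was oTP11 at 458 CPM and the one just outside was oTP10 at 5.45 CPM. Moving the threshold to 50 or 200 CPM changed no assignment, whereas 1000 CPM would move oTP11 to the low class.

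**Figure D1:**
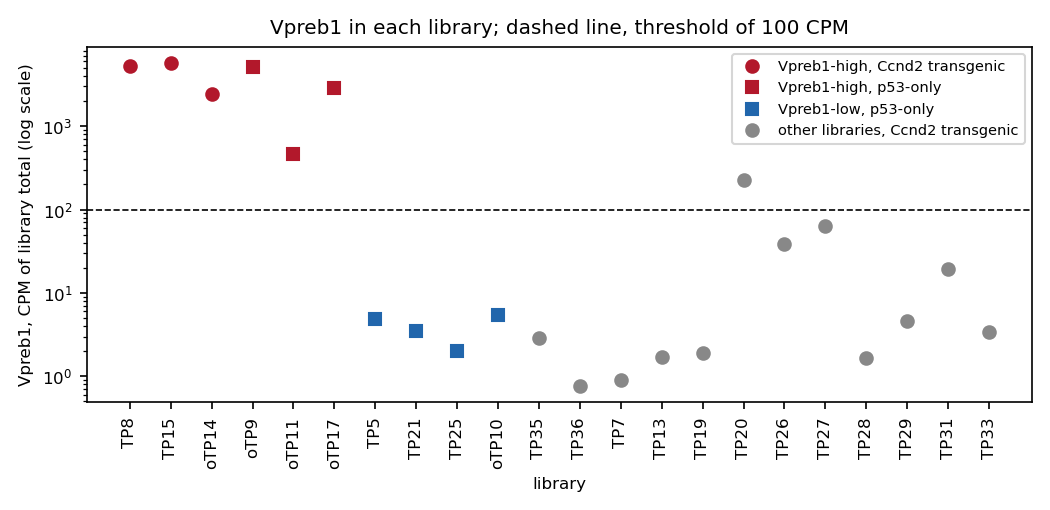
Vpreb1 in each of the 22 libraries, in CPM of the library total on a log axis, with red for Vpreb1-high, blue for Vpreb1-low and grey for libraries outside the comparison; circles are Ccnd2 transgenic and squares p53-only mice. The dashed line is the threshold of 100 CPM, and TP20, outside the comparison, lies above it at 224 CPM.

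Igll1 (chr16:16860671-16863985), the partner of Vpreb1 in the surrogate light chain, followed the same split. Its levels ran from 261 through a median of 966 to 1330 TMM-scaled CPM in the high class and were 1.65 in TP5, 1.62 in TP21 with oTP10 and 0.632 in TP25. Vpreb3, which encodes a related protein that associates with immunoglobulin chains during assembly, was present in every mouse but at 860 to 1452 in the high class against 163 to 348 in the low class. Vpreb2, a near-identical copy of Vpreb1 whose tags could be shared with it, had 799 counts in the high class and 0 in the low class, at least 156-fold higher against a floor of 3 counts over the class, with 220 of its TMM-scaled CPM in TP8 and at most 19.9 in the other 5 mice. Because these genes belong to the same programme as the gene that made the classes, their p-values are not given. Vpreb1, Igll1 and Vpreb3 entered the fit across all genes and are among its calls, and nothing is read from that.

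The promoters of Vpreb1, Igll1 and Rag1 are shown because these genes separated the classes together and hold the motif marked, and those of H2-Aa and H2-Eb1 because they are MHC class II genes called in the other direction. They are the 250 bases before the RefSeq transcript start (GRCm38.p6), written 5′ to 3′ on the strand of the gene. Capitals in the top 3 mark CAGGTG, an E-box of the kind bound by E2A-class proteins, on either strand, and capitals in the lower 2 mark CCAAT on either strand, the core recognised by NF-Y in MHC class II promoters.
Vpreb1 (chr16:16869256-16869505, minus strand): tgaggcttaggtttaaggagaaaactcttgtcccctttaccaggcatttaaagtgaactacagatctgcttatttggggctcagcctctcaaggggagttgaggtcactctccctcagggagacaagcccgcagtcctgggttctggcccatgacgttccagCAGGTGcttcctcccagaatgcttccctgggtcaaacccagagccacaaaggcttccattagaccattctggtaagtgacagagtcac
Igll1 (chr16:16863986-16864235, minus strand): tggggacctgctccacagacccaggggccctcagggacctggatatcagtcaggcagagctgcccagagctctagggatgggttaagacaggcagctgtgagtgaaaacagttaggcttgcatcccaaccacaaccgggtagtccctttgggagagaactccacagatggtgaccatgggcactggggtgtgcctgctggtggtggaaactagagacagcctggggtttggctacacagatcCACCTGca
Rag1 (chr2:101649533-101649782, minus strand): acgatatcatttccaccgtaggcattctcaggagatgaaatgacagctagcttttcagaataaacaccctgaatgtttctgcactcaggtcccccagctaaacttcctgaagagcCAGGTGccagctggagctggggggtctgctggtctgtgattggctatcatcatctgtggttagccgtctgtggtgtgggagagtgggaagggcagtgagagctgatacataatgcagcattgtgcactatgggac
H2-Aa (chr17:34287824-34288073, minus strand): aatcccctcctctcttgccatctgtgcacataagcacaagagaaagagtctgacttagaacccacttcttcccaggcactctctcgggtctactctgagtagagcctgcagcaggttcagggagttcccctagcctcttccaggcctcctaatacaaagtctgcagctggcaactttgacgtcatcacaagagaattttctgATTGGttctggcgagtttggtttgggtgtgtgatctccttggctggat
H2-Eb1 (chr17:34305617-34305866, plus strand): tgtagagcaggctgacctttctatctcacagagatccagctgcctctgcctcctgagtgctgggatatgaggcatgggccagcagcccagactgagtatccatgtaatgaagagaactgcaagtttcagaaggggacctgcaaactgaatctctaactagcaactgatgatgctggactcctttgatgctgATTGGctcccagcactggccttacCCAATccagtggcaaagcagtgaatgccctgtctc

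CAGGTG stood once in each of the top 3, and was in none of the matched promoters of Vpreb3, Enpep, Ebf1 and Lef1, other genes higher in the high class. CCAAT stood once in H2-Aa and 2 times in H2-Eb1, and also once in Rag1 and once in Enpep. Of the 3 matched promoters of called MHC class II genes, only these 2 held it. A promoter was matched for 65 of the 90 genes called higher in the high class (defined next), and 27.7% of those held CAGGTG, against 14.3% of 9004 matched promoters of all tested genes. Vpreb1, Igll1 and Rag1, shown because they hold this motif, are among the 18 of the 65 that did. The EBF-type core CCCNNGGGA was in 13.8% of the 65 and 6.53% of the 9004, and in neither Vpreb1, Igll1 nor Rag1. The median GC content was 61.6% in the 65 and 60.0% in the 9004. CCAAT was in 36.8% of all 9004, in 30.8% of the 65, and in 13.8% of the 29 matched promoters of genes called lower in the high class. These shares describe letters in a window and were not tested.

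Across 12422 tested genes, edgeR's quasi-likelihood test at an adjusted p under 0.05 called 90 genes higher (0.725% of those tested) and 48 lower (0.386%) in Vpreb1-high mice. Scaled by library size alone, the split was 113 higher and 34 lower. Since the classes were drawn from these same libraries, a call describes association with the Vpreb1 class and not the effect of a labelled condition. Among all tested genes, the 6 high mice all lay above the 3 low mice for 5.66% and all below for 4.48%. Of the called genes, 90 of 90 and 45 of 48 showed no such overlap. Of the 138 called genes, 23 belonged to a gene list. Those higher in the high class included pre-B receptor, recombinase, progenitor surface and early transcription factor genes, and those lower included 5 MHC class II genes and cyclin D1. In lists this short, 0 calls is near the share over all tested genes and is not read as a result about the list.

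The direction was also checked within each name prefix. Among TP libraries alone, TP8 and TP15 lay above TP5, TP21 and TP25 for 19.4% of all tested genes and below for 14% of them, and for 90 of the 90 called higher and 45 of the 48 called lower. Among oTP libraries, the 4 high libraries lay above oTP10 for 28% of tested genes and below for 21.8%, and for 90 of 90 and 46 of 48 of the called genes. Those libraries also entered the fit, so the counts describe how the calls are spread and are not a repeat of them. With TP libraries alone the fit called 36 genes, 23 of them shared with the 138, and with p53-only mice alone it called 1507, of which 131 were shared. In p53-only mice the high class is oTP9, oTP11 and oTP17, and the low class is TP libraries except oTP10, summed with TP21. Effects of prefix and class can therefore hardly be told apart in that fit. The 7 calls lost in p53-only mice include H2-Aa, H2-Eb1, H2-DMa, Ctss and Ccnd1. With oTP libraries alone, where the low class is the single library oTP10 and its spread is assumed to be that of the others, the fit called 23 genes, 1 higher and 22 lower, and 4 of them were shared.

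**Figure D2:**
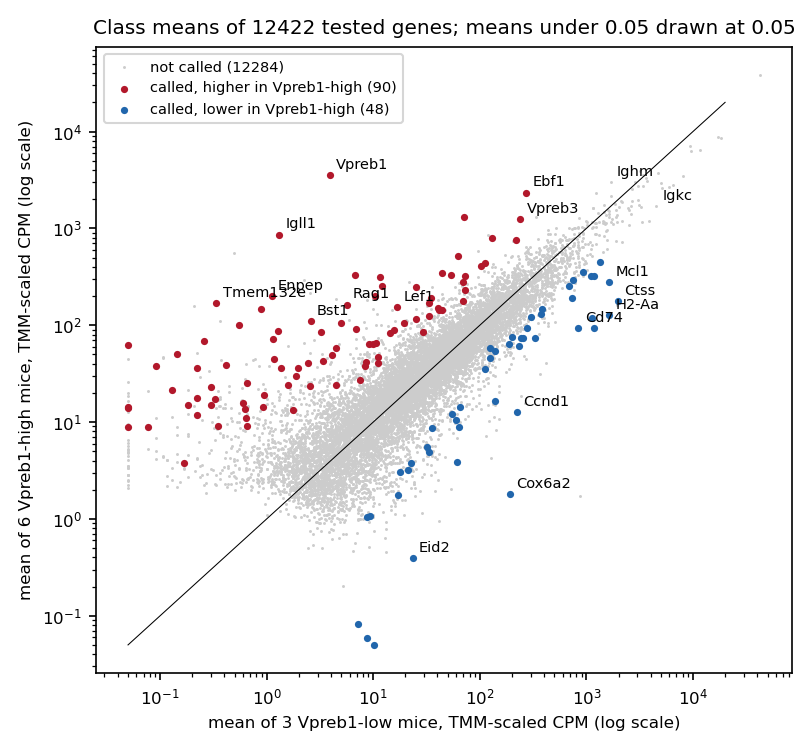
Mean TMM-scaled CPM of the 6 Vpreb1-high mice against that of the 3 Vpreb1-low mice for 12422 tested genes, both axes logarithmic, with called genes in red (90, higher) or blue (48, lower). Vpreb1 and Igll1 stand far above the diagonal, and H2-Aa, Ctss, Ccnd1 and Cox6a2 lie below it.

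The count of calls rested on few mice. Leaving out 1 mouse at a time gave 9 to 208 calls. The lowest counts came without a low mouse: 9 calls without TP25, 13 without TP21 and oTP10, and 33 without TP5. Without oTP9, oTP11 or oTP17 there were 43, 107 and 38 calls, and without TP15 there were 208. Of 33 called genes named by fixed rules (given with the processing), 4 were still called without TP25, 7 without TP21 and oTP10, and 11 without TP5. Each of these counts includes Vpreb1 and Igll1. In all 9 such fits 7 genes were called, all higher in the high class. They include Vpreb1, which made the classes, and its partner Igll1, so these calls are no support. The other 5 were Bst1, Enpep, Gpat3, Lxn and 4933439C10Rik, named here because they met this count and after their values were seen. None of the 48 genes called lower was called in every such fit.

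Progenitor surface genes gave 4 called members of 15, all higher in the high class, with a median log2 fold change of 0.93 over the list against 0.06 over all tested genes. Enpep, the glutamyl aminopeptidase BP-1 of pre-B cells, ranged from 106 through 179.5 to 352 TMM-scaled CPM in the high class and stood at 0.551, 0.578 and 2.21 in TP5, TP21 with oTP10 and TP25 (log2 fold change 7.59, SE 0.73, adjusted p = 0.00165). Bst1, the ectoenzyme BP-3, ranged from 65.2 through 109 to 162 in the high class and from 1.10 to 3.82 in the low class (log2 fold change 5.36, SE 0.51, adjusted p = 0.00165). Neither gene overlapped between the classes, and all 6 high mice carried both.

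Cd93, the AA4.1 antigen of immature B cells, had 320 to 841 TMM-scaled CPM in the high class and 78.5, 30.5 and 78.1 in the low mice (log2 fold change 3.05, SE 0.45, adjusted p = 0.0182). Socs2, a feedback inhibitor induced by STAT5, was higher by 4.42 (SE 0.84, adjusted p = 0.0368). Il7r itself, the receptor for the cytokine that drives pro-B cell growth, had no overlap, at 317 to 1076 against 174, 30.1 and 82.2, but its adjusted p was 0.059. Kit, a receptor of the earliest progenitors, had 0.393 to 61.6 in the high class and 4.05 to 11.6 in the low class, so the classes overlapped. Flt3, another early receptor, was low everywhere, at most 3.23 in the high and 9.83 in the low class.

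The recombinase genes separated the classes as well, and like those of the surrogate chain their p-values are not given, although Rag1 is among the calls. Rag1 ranged from 51.4 through 149 to 332 TMM-scaled CPM in the high class and was 5.51 in TP5, 1.85 in TP21 with oTP10 and 9.48 in TP25. Rag2 lay lower, at 9.83 to 59.8 against 0.462 to 2.76. Dntt, the terminal transferase of pro-B cells that adds bases at heavy chain junctions, was scarce throughout: 0 in TP8, 23.3 in TP15 and at most 10.3 in the other high mice, against 0.632 or less in the low class. The other 9 recombination genes, mainly general end-joining factors, had no call.

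Of 15 early B lineage transcription factors, 3 were called, all higher in the high class, and the list median was 0.70. Ebf1, which specifies the B lineage, ranged from 1092 through 2090 to 3630 TMM-scaled CPM against 240, 334 and 242 in the low mice (log2 fold change 3.11, SE 0.44, adjusted p = 0.0164). Lef1, a Wnt-responsive factor of pro-B cells, had 85.5 to 236 against 10.1 to 25.4 (log2 fold change 3.18, SE 0.46, adjusted p = 0.0164). Sox4, needed for pro-B cell survival, had 239 to 540 against 91.5, 30.8 and 37.6 (log2 fold change 2.65, SE 0.46, adjusted p = 0.0304).

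Other factors of the same stage did not pass the test. Myb had no overlap, at 458 to 973 against 79.3 to 360 (adjusted p = 0.0767), while Erg had 13.1 to 56.1 in 5 high mice and 0.59 in oTP11, inside the low range of 0 to 0.948 (adjusted p = 0.0826). Pax5, the factor that keeps B cell identity from pro-B cells to mature B cells, had similar levels, with a log2 fold change of 0.10 (SE 0.34) and class means of 468 ± 165 (SD, n = 6) and 437 ± 108 (SD, n = 3). All 9 tumours carried Pax5, at overlapping levels.

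The other genes with the largest increases were not members of the B cell lists. Tmem132e, a transmembrane protein gene, had 13.4 in TP8 and 96.5 to 271 TMM-scaled CPM in the other 5 high mice, and 0.551 or less in the low class. Arpp21, a cAMP-regulated phosphoprotein gene that hosts a microRNA, had 18.3 to 196 against 0.551 or less, and Epb41l4b, a membrane-cytoskeleton linker gene, had 8.40 to 211 against 1.10 or less. Pcdh9, a protocadherin gene, ranged from 8.65 in oTP11 to 339 in oTP17 against at most 2.20. Their adjusted p values were 0.0127, 0.0202, 0.036 and 0.036 in that order.

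Genes of that group with nothing or almost nothing in the low class varied widely among high mice. Umod, best known as the kidney gene for uromodulin, had 435 counts in the high class and 0 in the low class, at least 85.1-fold higher against a floor of 3 counts over the class, but only 0.768 TMM-scaled CPM in TP8 and 37.2 in oTP9. Drc7, a ciliary gene, had 387 counts against 0, at least 75.7-fold higher. Scn4b, a sodium channel β subunit gene, had 1327 counts against 2 and ranged from 5.52 to 106 in the high class. Gpat3, of glycerolipid synthesis, and Lxn, a carboxypeptidase inhibitor gene, were more even, at 58.0 to 140 and 63.7 to 125 against at most 2.31 and 4.41.

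Among lists of later stages, 1 member of the plasma cell list and 1 of the B1 and marginal zone list were called, both higher in the high class. Mzb1, a chaperone for μ heavy chain assembly, had 537 to 988 TMM-scaled CPM against 143 to 306 (log2 fold change 1.82, SE 0.34, adjusted p = 0.036). Cd1d1, the lipid-presenting molecule, had 37.7 to 103 against 7.72 to 13.3 (log2 fold change 2.69, SE 0.46, adjusted p = 0.0304). No other member of those lists was called.

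**Figure D3:**
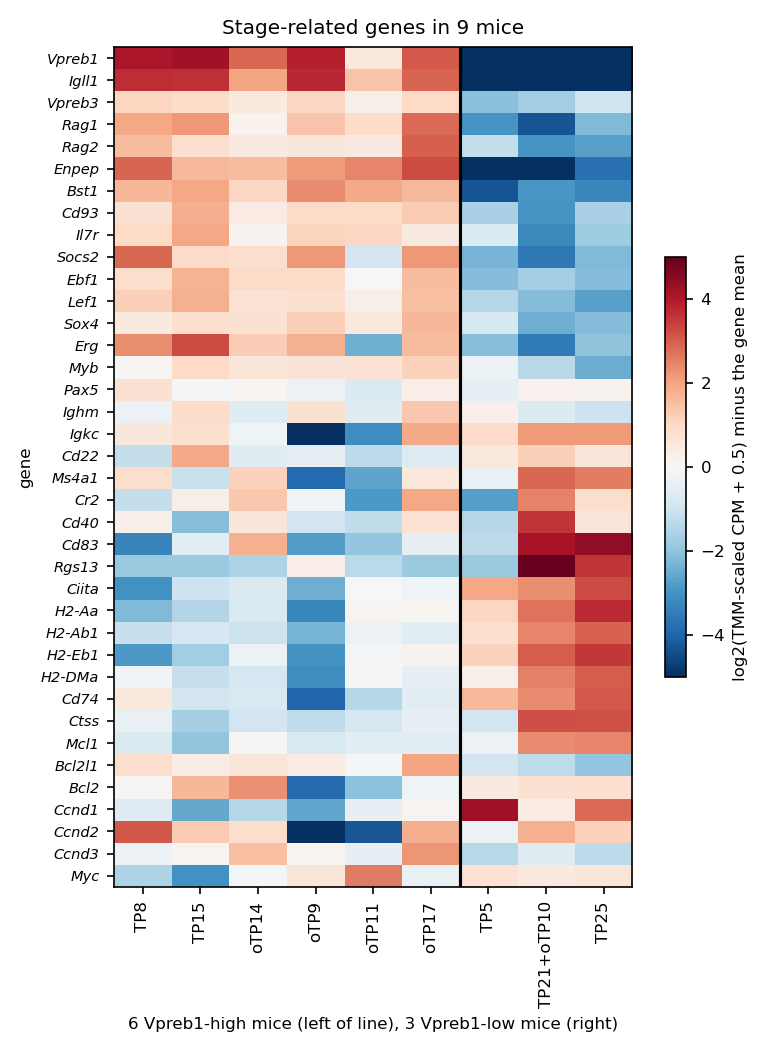
Levels of stage-related genes in the 9 mice as log2(TMM-scaled CPM + 0.5) minus the mean of each gene, with Vpreb1-high mice left of the line. Most early genes at the top are higher in the 6 high mice than in the 3 low mice. Erg in oTP11 lies in the low-class range, and Pax5 is similar in both classes. Cd40, Cd83 and Rgs13 are red in TP21 with oTP10 and TP25 and not in TP5.

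In the opposite direction, MHC class II was the list with the most called members, 5 of 11, all lower in the high class. All 11 fold changes were negative, with a median log2 fold change of -3.07, and 6 of the 11 had no overlap between classes. H2-Aa, an α chain, ranged from 22.7 through 105 to 245 TMM-scaled CPM in the high class and was 466 in TP5, 1466 in TP21 with oTP10 and 2975 in TP25 (log2 fold change -3.68, SE 0.72, adjusted p = 0.04). H2-Ab1, its β chain partner, had 44.0 to 185 against 405 to 1760 (log2 fold change -3.24, SE 0.48, adjusted p = 0.0174). H2-Eb1 (-3.65, adjusted p = 0.0442), H2-DMa (-3.07, adjusted p = 0.0477) and the invariant chain Cd74 (-3.18, adjusted p = 0.0479) were the others called. These calls were close to the threshold: of the 9 fits without 1 mouse, H2-Aa, H2-Eb1 and H2-DMa were called in 1 each, Cd74 in 2 and H2-Ab1 in 7. None of the 5 was called with TP libraries or spleen samples alone, and in p53-only mice the adjusted p was 0.0647 for H2-Aa, 0.0509 for H2-Eb1 and 0.0612 for H2-DMa.

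Ciita, the master transactivator of these genes, had 0 to 3.54 TMM-scaled CPM in the high class and 15.2, 19.9 and 38.9 in the low class, without overlap, at an adjusted p of 0.0513. H2-Ob, a modulator of peptide loading, was the exception in size, with 61.8 to 152 against 56.2 to 200. Ctss, the cathepsin that trims the invariant chain, was called lower (log2 fold change -3.49, SE 0.63, adjusted p = 0.0324), but rested on 2 mice. It had 2943 in TP21 with oTP10 and 2869 in TP25, whereas TP5 stood at 170, inside the high class range of 100 to 245. Ctss is named although outside the naming rule, after its values were seen.

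Antigen-presenting and lymphoid cells other than tumour cells also express some of these genes, so their markers are given beside this result. The 15 T cell markers summed to 45.8 to 202 TMM-scaled CPM in the high class and to 130, 476 and 963 in TP5, TP21 with oTP10 and TP25, and none was called. The 10 NK cell markers summed to 8.05 to 94.97 in the high class and to 6.89, 102 and 519 in the low mice. The 12 macrophage markers summed to 311 to 1802 against 336, 686 and 1904, with class medians of 608 and 686. The T, NK and macrophage sums overlapped between the classes, and each was highest in TP25, the mouse with the most H2-Aa. The macrophage sum was nearly as high in Vpreb1-high TP8 (1802 against 1904 in TP25), where H2-Aa was below that of every low mouse. Dendritic cells had no list, and the part of other cells in this result was not tested. In bulk RNA, fewer cells of a type and less RNA per cell cannot be told apart.

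Markers of further cell types also varied. The 10 neutrophil markers summed to 18.6 to 4072 TMM-scaled CPM in the high class and 529 to 4990 in the low class, and the 11 erythroid markers to 1306 to 33371 and 1010 to 42501. The 12 stroma and endothelium markers leaned the other way, at 259 to 566 against 140 to 267. The part of these cells in the class differences was not tested. The tumour labelled thymoma, oTP11, had the lowest T cell sum of all 9 mice, 0.393 of Cd3e and 0 of Foxn1, the defining gene of thymic epithelium, beside its pan-B and pre-B transcripts. The 9 thymic epithelium markers summed to 11.8 in oTP11, inside the range of 11.7 (TP25) to 24.5 (TP15) over the mice. That list therefore does not set oTP11 apart, and its label was not tested.

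In the mature B cell surface list 0 of 18 tested members were called (of 20, the other 2 being too low to test). Over all tested genes 0.725% were called higher and 0.386% lower, so 0 calls in a list this short is near that share. Of the 18 fold changes, 13 were negative and 5 positive, with a list median of -0.69 against 0.06 over all tested genes. None of the 18 lacked overlap between classes, against 5.66% (higher) and 4.48% (lower) of all tested genes. Ms4a1 (CD20) had 4.78 through 74.5 to 174 TMM-scaled CPM in the high class and 565 and 458 in TP21 with oTP10 and TP25, but 59.0 in TP5 (adjusted p = 0.246). Cd22 had 49.7 to 459 against 179 to 288, and Cr2 (CD21), a marker of mature follicular and marginal zone cells, had 0.983 to 40.9 against 1.10 in TP5, 60.4 in TP21 with oTP10 and 19.6 in TP25. Cd40 was 136 in TP21 with oTP10 and 3.86 and 17.4 in the other low mice. The working name of the low class, mature-like, was matched by the MHC class II calls. The surface list leaned lower in the high class without a call, which with 3 low mice does not decide the name. TP5 carried little Ms4a1, Cr2 or Cd40. The classes are therefore called by their Vpreb1 level here.

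In the germinal centre list 1 of 8 tested members was called, and several transcripts were highest in TP21 with oTP10 and TP25. Rgs13, a regulator of chemokine signalling in germinal centre B cells, had 146 TMM-scaled CPM in TP21 with oTP10 and 20.5 in TP25 but 0 in TP5, and at most 1.76 in the high class. Fcer2a (CD23) had 64.7 and 16.8, and 0.276 in TP5, and like Rgs13 was too low in most mice to be tested. S1pr2, the receptor that confines cells to the germinal centre, was the called member (log2 fold change -2.78, SE 0.57, adjusted p = 0.0477), with 62.3, 29.4 and 8.54 in TP21 with oTP10, TP25 and TP5 against 2.75 to 8.44. Efnb1 had 43.9 to 72.8 in all 3 low mice against 2.01 to 24.5, at an adjusted p of 0.0818.

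**Figure D4:**
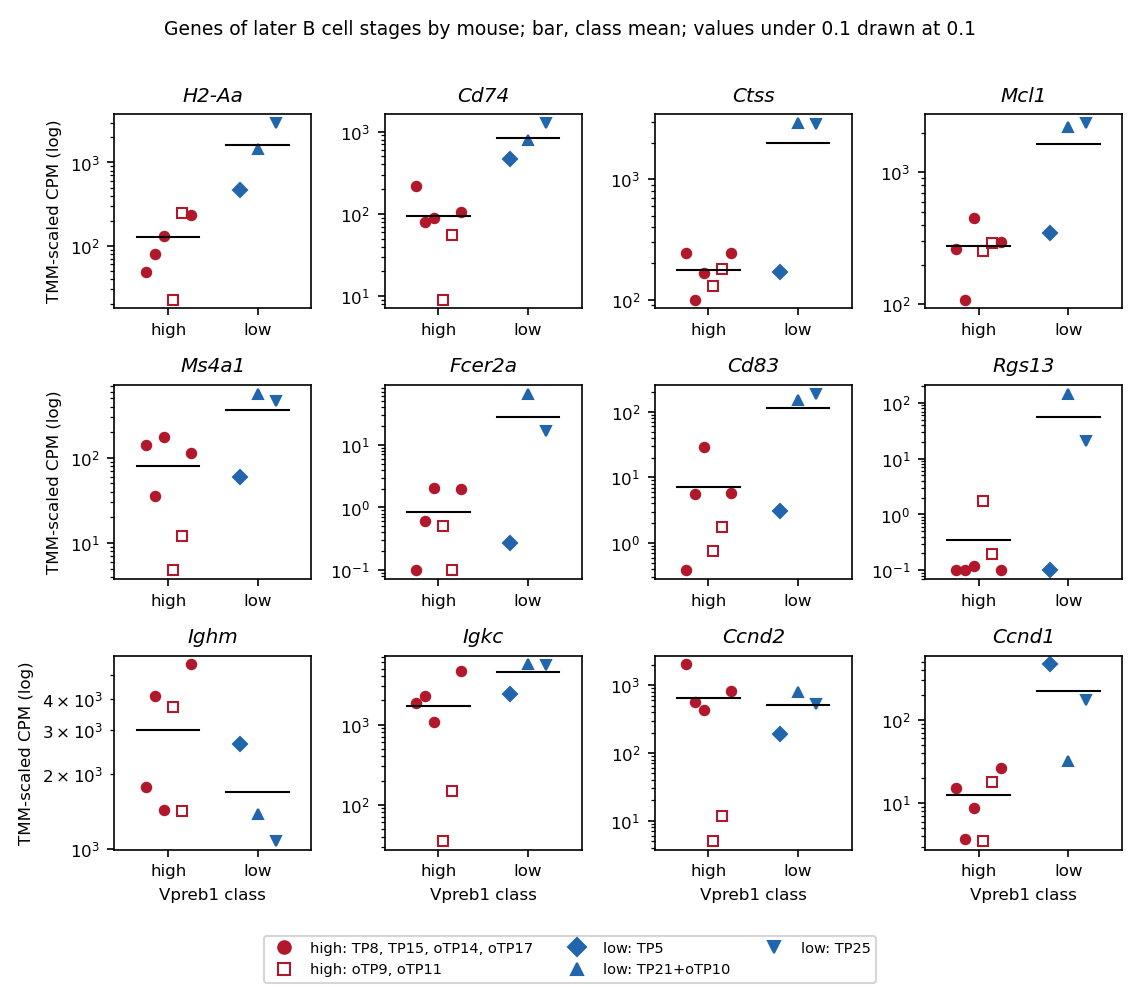
Levels of 12 genes in each mouse in TMM-scaled CPM on log axes, with Vpreb1-high mice in red (open squares, oTP9 and oTP11) and the 3 Vpreb1-low mice in blue (diamond, TP5); bars are class means. H2-Aa and Cd74 separate the classes in all mice, whereas Ctss, Ms4a1, Fcer2a, Cd83 and Rgs13 are high in TP21 with oTP10 and TP25 and within the high-class range, or at or near 0, in TP5.

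Immunoglobulin constant region genes gave 0 called of 12 tested members, near the share over all tested genes (0.725% higher, 0.386% lower). The list median was -0.64, and 1 member had no overlap between classes. Ighm (μ) was abundant in all 9 mice, at 1423 to 5511 TMM-scaled CPM in the high class and 1074 to 2639 in the low class. Igkc (κ) was 2436 to 5626 in the low class, and in the high class 1086 to 4695 in TP8, TP15, oTP14 and oTP17 but 35.2 in oTP9 and 148 in oTP11. Switched isotypes were uneven: Ighg1 (γ1) had 297, 637 and 318 in the low mice against 0 to 173, without overlap, and an adjusted p of 0.297. Ighe (ε) had 266 in TP21 with oTP10, 128 in TP25 and 0.276 in TP5, and at most 1.08 in the high class, and was not tested for the same reason.

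The Vpreb1-high mice oTP9 and oTP11 stood apart from the other 4 high mice in Ccnd2 as well as Igkc. Ccnd2 was 5.03 and 11.8 TMM-scaled CPM in those mice and 434 to 2018 in the others, 3 of which carry the transgene, while p53-only oTP17 had 824. The low class, all without the transgene, had 190, 803 and 527. The 3′ tags do not show whether Ccnd2 transcripts came from the transgene. Bcl2, the survival gene, was also lowest in oTP9 and oTP11, at 2.52 and 10.2 against 37.7 to 218 in the other high mice. These contrasts were noticed in the values and were not tested.

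Of the G1 cell cycle genes, 1 of 19 tested was called. Ccnd1 (cyclin D1), whose activation defines most human mantle cell lymphoma, was 3.52 through 12.1 to 26.8 TMM-scaled CPM in the high class and 462 in TP5, 32.4 in TP21 with oTP10 and 173 in TP25 (log2 fold change -4.12, SE 0.76, adjusted p = 0.0358). Ccnd1 was called in 3 of the 9 fits without 1 mouse, and its adjusted p was 0.0540 in p53-only mice. Ccnd3, the D cyclin that pre-B cells depend on, had 531 to 3271 against 271 to 458, without overlap, at an adjusted p of 0.15. Ccnd2 had a log2 fold change of 0.34 (SE 1.28). Of the 3 D cyclins, only Ccnd1 passed the test.

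Proliferation genes gave 0 called of 22, near the share over all tested genes (0.725% higher, 0.386% lower), and a list median of 0.04. Mki67 was 122 to 369 TMM-scaled CPM in the high class and 791, 354 and 340 in the low mice (adjusted p = 0.175). In the Myc list 1 of 16 tested members was called, the ribosome biogenesis gene Nop58, at 177 to 356 against 886, 482 and 712 (log2 fold change -1.45, SE 0.30, adjusted p = 0.0479). Ncl had no overlap either, at 768 to 2146 against 2352 to 4667 (adjusted p = 0.059). Myc itself was 5.52 to 295 in the high class, highest in oTP11, and 66.8 to 80.2 in the low class.

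The Bcl2 family had 2 called of 14 tested, both lower in the high class. Mcl1, an anti-apoptotic member, was 109 through 276 to 448 TMM-scaled CPM in the high class and 2212 and 2369 in TP21 with oTP10 and TP25, but 348 in TP5, inside that range (log2 fold change -2.57, SE 0.53, adjusted p = 0.0477). Bbc3, which encodes the pro-apoptotic PUMA and is a p53 target, was 1.26 to 4.73 against 11.6, 16.3 and 25.6 (log2 fold change -2.56, SE 0.53, adjusted p = 0.0483). Bcl2l1, which encodes BCL-XL, had 54.8 to 228 against 14.5 to 29.8 at an adjusted p of 0.059. The classes did not overlap for Bcl2l1 and Bbc3, and did for Mcl1.

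Bbc3 was also the only called gene of 15 tested p53 targets, whose list median was 0.13. Trp53 tags were present at 3.37 to 17.3 TMM-scaled CPM in the high class and 3.79 to 16.3 in the low class. The labels do not say which exons are floxed, so 3′ tags do not check the deletion.

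The remaining large decreases in the high class belonged to varied genes. Cox6a2, a muscle-type subunit of cytochrome c oxidase, was at most 5.11 TMM-scaled CPM in the high class and 89.8, 7.63 and 480 in TP5, TP21 with oTP10 and TP25. Eid2, a transcriptional repressor gene, was at most 1.15 against 49.6, 7.28 and 13.3. Dyrk3, a kinase gene, had 2.36 to 4.60 against 8.22 to 34.3, and Krt222, a keratin-like gene, had 0.983 to 3.90 against 6.95 to 35.6. Their adjusted p values were 0.0304, 0.0205, 0.0318 and 0.0467 in that order.

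Receptor signalling (22 tested), late B lineage transcription factors (16), NF-κB targets (15) and interferon response genes (15) had 0 called members each. That is near the share over all tested genes (0.725% higher, 0.386% lower). The medians of these lists were -0.14, -0.95, -0.60 and -0.80. Within them, the phosphatase gene Ptpn6 (SHP-1) had 35.7 to 191 TMM-scaled CPM in the high class and 306 to 566 in the low class without overlap, at an adjusted p of 0.069. Irf4, which pre-B cells use to start light chain rearrangement, lay the other way at 152 to 292 against 84.4 to 127, without overlap, at an adjusted p of 0.0869. Cd83, an NF-κB-responsive surface gene, was 152 and 188 in TP21 with oTP10 and TP25 and 3.03 in TP5.

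**Figure D5:**
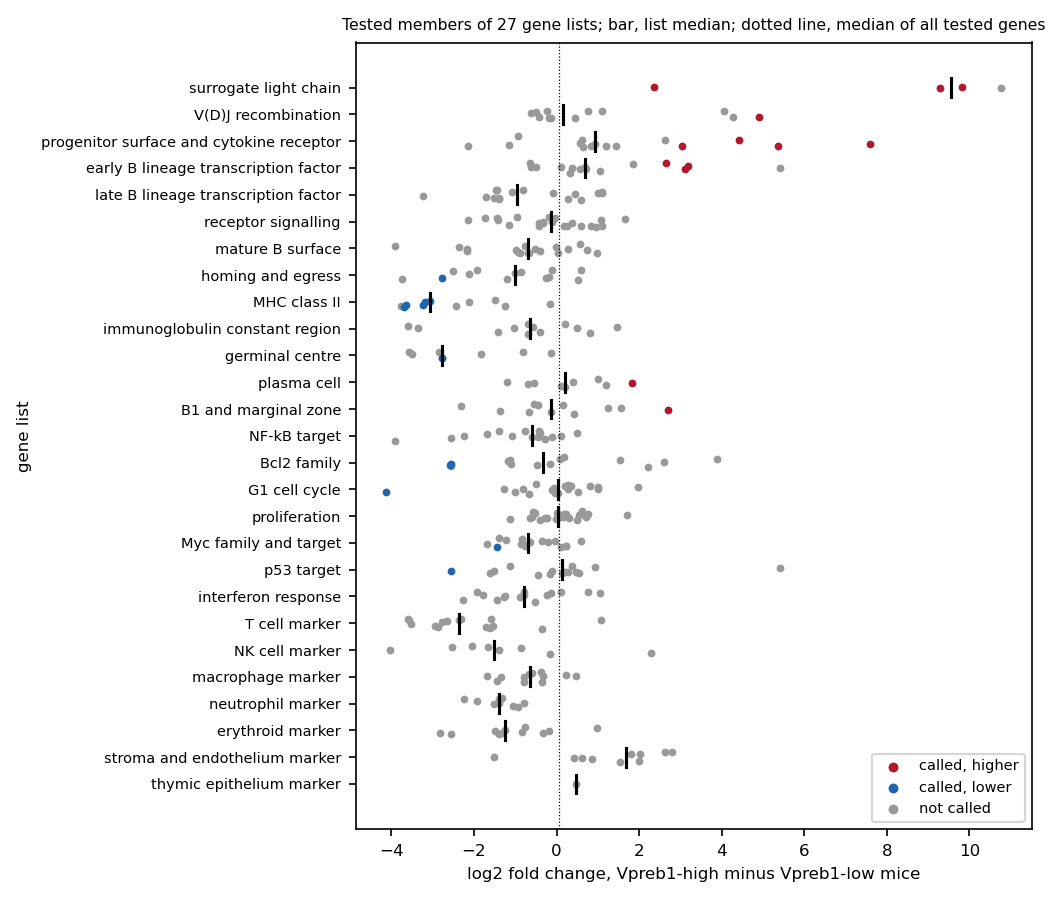
Log2 fold change (Vpreb1-high minus Vpreb1-low) of each tested member of 27 gene lists, with called members in red or blue, bars at list medians and a dotted line at the median of all tested genes (0.06). Called members lie to the right for the surrogate light chain, recombination, progenitor and early factor lists and to the left for MHC class II, which has a median of -3.07.

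TP21 and oTP10 gave 2 readings of 1 mouse, from spleen and from a site labelled lymphoma. On log2(CPM + 0.5), 4.92% of the 12422 tested genes differed more than 4-fold between them. For each called gene a midpoint was set between the class means on that scale. TP21 lay on the low-class side for 90 of the 90 genes called higher in the high class and for 43 of the 48 called lower. For oTP10 the counts were 86 of 90 and 33 of 48. This mouse is 1 of the 3 low mice that entered the fit and set the midpoints. The counts were thus largely fixed in advance and are no support. Both libraries had little Igll1 (0.825 and 3.06 CPM) and high H2-Aa (1369 and 1493 CPM), while Vpreb3 was 87.5 and 437 CPM and Hba-a1, a globin gene, 7192 and 124 CPM.

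Libraries that the rule did not use were placed by the same midpoints, as a description. The 2 transplanted Ccnd2 non-MCL libraries, TP35 and TP36, come from 1 primary tumour of another mouse, passaged in NSG hosts, and had 2.91 and 0.762 CPM of Vpreb1. They lay on the low-class side for 72 and 83 of the 90 genes and for 35 and 34 of the 48. Among genes not called, TP35 and TP36 lay on that side for 57.2% and 72.4% of those with the higher mean in the high class, and for 54.7% and 48.7% of those with the lower. A gene silent in a library falls on the low-class side whenever its mean is higher in the high class. The profile was mixed: Rag1 was 85.2 and 26.4 CPM, Cd93 506 and 200, Ebf1 967 and 833, and Ighm 9.79 and 23.6, while Ighg1 was 3603 and 3178 and H2-Aa 1047 and 2783.

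The 4 MCL-like primary lymphomas, TP7, TP13, TP19 and TP20, lay on the low-class side for 84, 83, 87 and 69 of the 90 genes called higher, and for 23, 26, 26 and 25 of the 48 called lower. For uncalled genes with the higher mean in the high class, the shares on that side were 70.5%, 68.8%, 68.5% and 49.96%. For uncalled genes with the lower mean they were 42.2%, 53.4%, 55.8% and 59.2%. The counts out of 48 lay near these last shares or, for TP20, below its share, so nothing is read from them. In TP7, TP13, TP19 and TP20, H2-Aa was 3222, 3237, 889 and 2567 CPM. Ms4a1 was 1975, 895, 1401 and 1399 CPM. In these mice too, Ccnd1 was 74.0, 16.7, 24.7 and 19.9 CPM. TP20 differed from the other 3 in its early transcripts, with 224 CPM of Vpreb1, 30.4 of Igll1 and 14.5 of Enpep, but 0 of Rag1. The 6 MCL-like transplants lay on the low-class side for 82 to 85 of the 90 genes and 27 to 36 of the 48. Among genes not called, their shares were 61.4% to 72.7% and 42.6% to 54.4%. Titles of these 6 read non-MCL, whereas their immunophenotype label, which set their group here, reads MCL-like.

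Library totals of the 10 libraries ran from 2693399 counts (TP8) to 8146613 (oTP14), and 16422 to 19021 genes had at least 1 count. No pair of them agreed within sampling noise, so none was treated as the same library deposited again. Each mouse is 1 animal, but the p-values measure the spread between these 9 animals after they were sorted by an expressed gene.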

How the data were processed

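The 22 libraries were prepared from frozen lymphoma cells with a QuantSeq 3′ mRNA-seq kit and sequenced, per the labels' protocols. The authors deposited 1 table of raw counts per Ensembl gene, and the submitters' processing notes name FastQC, STAR and GRCm38. Neither the counter nor its strand setting, annotation or any version is given in these sources. Of 52636 gene identifiers, 52489 matched GENCODE M21, which supplied symbols. No row without a gene name was present, and no column lacked a sample.

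Counts of TP21 and oTP10 were summed. Genes were filtered with filterByExpr, scaled by TMM and tested with edgeR 4.0.16 (R 4.3.3; quasi-likelihood F test, Benjamini-Hochberg adjustment over all tested genes, threshold 0.05) between 6 Vpreb1-high and 3 Vpreb1-low mice without covariates. A 3′ tag count is not corrected for length, so levels are compared between mice and not between genes. The test was also run on simulated counts with known changes and the same spread for all genes, and nothing about these data is read from that run. Reads of antisense or near-identical genes cannot be told apart.

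The members, the 28 gene lists and the tests were chosen with earlier results of these data known. Genes were named by 3 rules: key genes fixed by name; in each direction the 10 called genes of greatest fold change that reached 10 TMM-scaled CPM in the higher class, had no overlap over all mice or over TP libraries, and bore a named-gene symbol; and the 3 members of each list lowest in adjusted p. Named outside these rules, after their values were seen, were Ctss, Socs2, Flt3, Pax5, Vpreb2, Gpat3, Lxn, 4933439C10Rik, H2-Ob, Rgs13, Fcer2a, Ighe, Foxn1 and Hba-a1. Levels in libraries outside the comparison and in single libraries are CPM of the library total; midpoints used a pseudocount of 0.5 CPM. Alternatives were library size scaling, DESeq2 1.42.0, limma-voom 3.58.1, no filter, other thresholds, prefix, genotype and site restrictions, and leaving out each mouse. Promoters came from RefSeq (GRCm38.p6), taking the start nearest to that of the gene in GENCODE. Transplants and MCL-like libraries entered no test.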

Additional observations from a re-analysis of the deposited data

Results flagged for a closer look

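Krt222 in oTP14 was 3.90 TMM-scaled CPM, farther above the other 5 Vpreb1-high mice than Dixon's 95% limit for 6 samples allows (gap over range 0.647, limit 0.625). Of 33 called genes named by rule and examined in this way it was the only one, and chance alone passes the limit in about 5% of groups. Vpreb1 in MCL-like primary replicate 4 (TP20), which entered no comparison, was 224 CPM, above the threshold of the rule and above the 4.82, 3.47, 2.02 and 5.45 CPM of the Vpreb1-low libraries.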

How the results depend on the processing

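Against 138 called genes (90 higher, 48 lower), DESeq2 called 997, limma-voom 81, unsummed libraries 385, oTP10 alone for its mouse 40, TP libraries 36, oTP libraries 23, prefix as a covariate 433, p53-only mice 1507, genotype as a covariate 541 and spleen samples 29. With oTP11 moved to the low class by a threshold of 1000 CPM, edgeR called 0, with 1275 genes at an unadjusted p under 0.05 and no other tool run on that split. Library size scaling gave 113 higher and 34 lower, with the median of all genes at 0.20. Without oTP9 and oTP11 together, tried after seeing the data, 81 were called. Leaving out each mouse gave 9 to 208, with 13 without TP21 and oTP10.

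Called members over all lists were 23, and 57 with DESeq2, 35 unsummed, 10 with oTP10 alone, 7 and 1 for TP and oTP libraries, 66 in p53-only mice, 6 in spleen, 0 at 1000 CPM and 15 without oTP9 and oTP11. Leaving out each mouse gave 4 to 23, with 5 without TP21 and oTP10. In the transplanted non-MCL mouse, with both libraries summed, 83.3% of called genes lay on the low-class side (genes are not independent, so no interval is given), and 91.7% for TP, 47.8% for oTP and 73.9% for the prefix covariate calls. Leaving out each mouse gave 76.9 to 88.9%. The causes of these shifts were not tested. Of the 33 called genes named by rule, 9 were still called with TP libraries, 1 with oTP libraries, 8 in spleen and 0 at 1000 CPM, and 4, 7 and 11 without TP25, TP21 with oTP10 and TP5. None of their 856 values over 26 alternatives changed sign, but those fits share libraries, so this is no independent support.

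No paired analysis was possible because replicate numbers follow accession order and the classes are made of different mice. Depth of 2693399 to 8146613 counts limits genes near 1 CPM. With 3 low mice, each decides a large share of the calls.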
